A study of Mus musculus with 3 samples.

Results

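The contractile genes of fast muscle fibres were followed in gastrocnemius, the large calf muscle, of mice in which tamoxifen raises Akt signalling. The set holds 10 genes: the myosin heavy chains Myh4, Myh1 and Myh2, the light chains Mylpf and Myl1, the troponin subunits Tnnc2, Tnni2 and Tnnt3, the tropomyosin Tpm1 and the Z-disc protein Actn3. Its members were taken by name, as all probe sets (groups of short oligonucleotide probes for 1 transcript) that the platform annotation gives to 1 of these symbols. This found 18 probe sets among 45101 on the array. All 18 passed the filter on low signal, which 21804 probe sets passed, and the 10 genes stand among 11092 genes compared.

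Every mouse, controls included, was labelled Akt_Cre transgenic on a C57BL/CD1 background. The transgene joins Akt to the tamoxifen-binding part of the oestrogen receptor and, per the labels, is made in skeletal muscle alone. Its promoter, the number of founder lines, and the age and sex of the mice are not given in the sources used here. The 3 groups were oil for 24 h (the vehicle control), tamoxifen for 24 h and tamoxifen for 48 h. Each was measured on 1 Affymetrix Mouse 430 2.0 array that held RNA pooled from 3 to 4 mice. Since no group was repeated, no value carries a replicate error, no test between groups was possible, and "past 2-fold" below is a size rule only. No 48 h oil group was analysed here, so at 48 h treatment and time cannot be told apart. No tamoxifen-treated mice without the transgene were analysed either. At 24 h and at 48 h, an effect of tamoxifen itself thus cannot be told apart from one of Akt. The single oil array serves as the baseline at 24 h and again at 48 h.

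Contraction is driven by myosin heads of the thick filament that pull on actin. A pair of light chains braces each head, and troponin and tropomyosin on the thin filament open the myosin-binding sites when calcium rises. Fast and slow fibres build these parts from separate genes, and the heavy chain sets the speed, with the IIb form (Myh4) fastest, then IIx (Myh1) and IIa (Myh2). Akt relays signals from insulin and IGF1 receptors, and its activation makes fibres grow.

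The 3 fast heavy chain genes lie side by side on mouse chromosome 11, in the order Myh2, Myh1, Myh4, and their sequences just before the start of transcription are related. These are shown because the results below differ most within this trio. The stretches are the 250 bases before each annotated start, all on the plus strand, from RefSeq on GRCm38.p6. Capitals mark every run of 8 or more bases that all 3 share.

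Myh2 (chr11:67170777-67171026): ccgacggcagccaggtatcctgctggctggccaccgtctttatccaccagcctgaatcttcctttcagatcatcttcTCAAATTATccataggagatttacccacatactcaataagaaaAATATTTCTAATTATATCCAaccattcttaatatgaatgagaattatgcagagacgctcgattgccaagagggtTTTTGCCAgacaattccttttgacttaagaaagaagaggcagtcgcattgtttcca
Myh1 (chr11:67199852-67200101): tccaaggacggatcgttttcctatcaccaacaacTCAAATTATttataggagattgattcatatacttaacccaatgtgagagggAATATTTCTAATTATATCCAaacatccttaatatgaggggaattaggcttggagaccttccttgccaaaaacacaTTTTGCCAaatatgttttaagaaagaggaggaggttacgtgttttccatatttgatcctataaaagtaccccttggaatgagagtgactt
Myh4 (chr11:67237562-67237811): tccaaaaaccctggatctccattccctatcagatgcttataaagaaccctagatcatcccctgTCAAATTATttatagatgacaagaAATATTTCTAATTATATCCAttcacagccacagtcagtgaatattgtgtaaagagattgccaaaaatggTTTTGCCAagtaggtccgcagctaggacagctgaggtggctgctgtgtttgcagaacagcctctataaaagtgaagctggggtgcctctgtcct

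Of 250 bases, 37 lay in such shared runs, in the same order in each gene. The longest, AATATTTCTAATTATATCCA, has 20 bases and begins 130 bases before the Myh2 start, 165 before the Myh1 start and 163 before the Myh4 start. On either strand it was found in 3 of 32851 RefSeq promoter windows of this length, those of these genes. The run TCAAATTAT was in 57 of the windows and TTTTGCCA in 322. In pairwise alignments with gaps, the share of bases set opposite each other that matched was 76.1% for Myh2 and Myh1, 68.6% for Myh2 and Myh4 and 67.4% for Myh1 and Myh4. These shares leave out 106, 86 and 46 gap positions, in the same order of pairs. The matching bases numbered 150, 142 and 153, so which pair is most alike depends on how gaps are counted.

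Sequence motifs of muscle promoters were searched on both strands in the 7 members that the promoter table holds (Myh1, Myh2, Myh4, Mylpf, Myl1, Tnnc2 and Tpm1). The TATA box, searched as TATAAA, was in 3 of the 7 (Myh1, Myh4 and Myl1) and in 12.4% of all windows. In Myh1 and Myh4 it began 32 and 31 bases before the start. The E-box, CANNTG, a motif bound by MyoD-type factors, was in 5 of the 7 and in 66.2% of all windows. The MEF2 site, named for a family of muscle transcription factors, was in Myh1 and Myh4 and in 2.92% of all windows, and in both genes it overlapped a TATA box match on the minus strand. The CArG box, the element bound by serum response factor, was in Myh4 alone and in 1.47%. A match describes letters and does not show a bound site.

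None of the 10 genes was past 2-fold in any comparison. Each gene was read on its brightest probe set, in intensities scaled to a common median. At 24 h of tamoxifen 0 of 10 passed, beside 4.83% of the 11092 genes compared. At 48 h 0 of 10 passed, beside 6.44%, and between 48 h and 24 h of tamoxifen 0 of 10 passed, beside 3.22%. Among the 665 genes with a mean scaled intensity of 1000 or more, which include all 10 members, the shares were lower: 2.26% at 24 h, 3.76% at 48 h and 0.602% between the tamoxifen arrays. With 10 members, a count of 0 is near each of these backgrounds. Myh1 had the lowest log2 ratio of the 10, -0.26 at 24 h and -0.18 at 48 h, and Myh2 the highest, 0.29 and 0.30. The median log2 ratio of the 10 genes was -0.04 at 24 h and -0.03 at 48 h, beside 0.04 and 0.0070 over all genes.

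**Figure D1:**
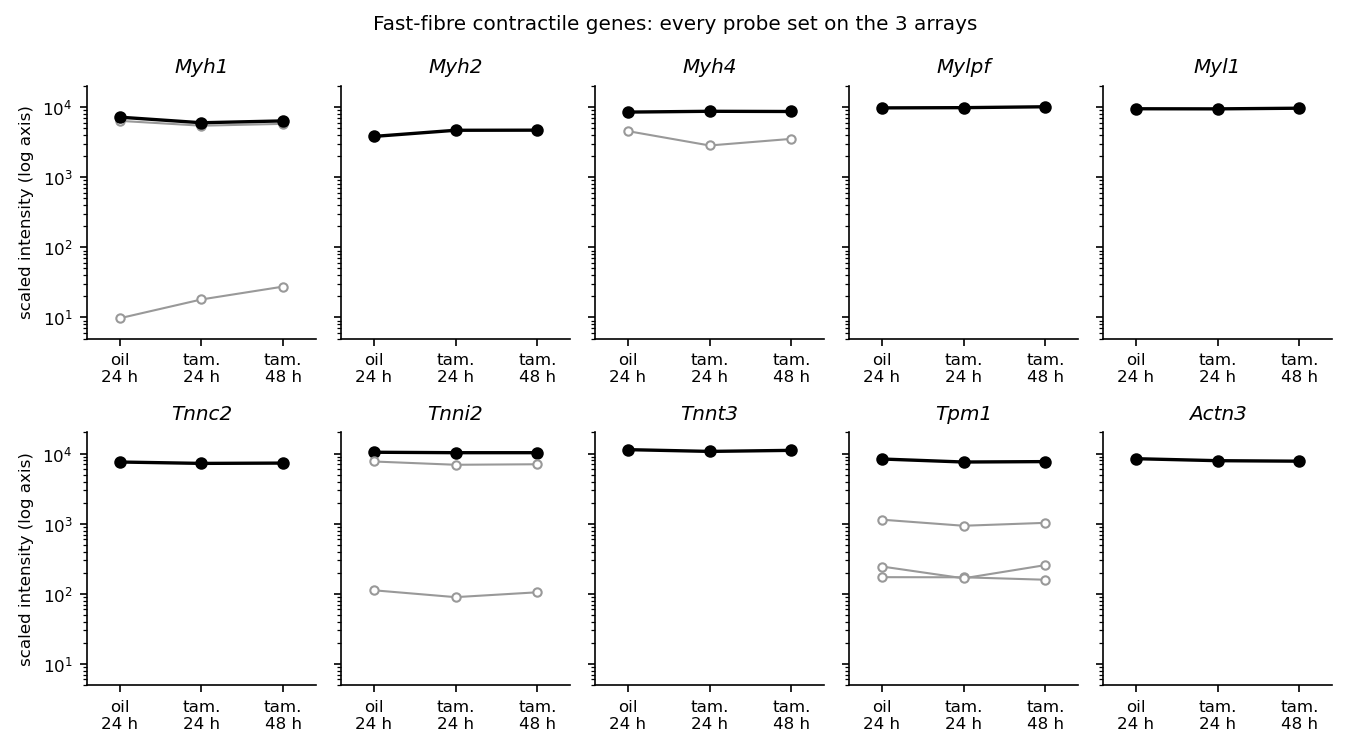
Scaled intensity (log axis) of all 18 probe sets of the 10 fast-fibre contractile genes on the 3 arrays, 1 panel per gene and 1 point per array, with no error bars because each group is 1 array. Black points are the brightest probe set of each gene and open grey points the others; the black lines are nearly level in every panel, and the grey line that climbs is the dim Myh1 probe set, from 9.73 to 27.5.

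Myh2, the heavy chain of IIa fibres, had the highest ratio to oil on the members' brightest probe sets. Its single probe set gave 3817 with oil, 4672 after 24 h of tamoxifen and 4688 after 48 h, so the oil array was the low one and both tamoxifen arrays were level. The ratios to oil were 1.22-fold and 1.23-fold, or 0.29 and 0.30 in log2. Among the 244 kept probe sets with mean intensities from 3000 to 5000, Myh2 included, the SD of the log2 ratio was 0.22 at 24 h and 0.285 at 48 h. The Myh2 ratios were thus near the spread of equally bright probe sets. Under 10 other ways of scaling, filtering and summarising, the Myh2 log2 ratio stayed above 0, between 0.21 and 0.58 at 24 h and between 0.23 and 0.37 at 48 h.

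Myh1, the heavy chain of IIx fibres, read the other way. Its brightest probe set gave 7184 with oil, 5982 at 24 h and 6355 at 48 h. A second probe set, built from another sequence record, read 6365, 5429.7 and 5766, and its log2 ratio differed from the first by 0.03 in each comparison with oil. On both, the oil array was the high one, and the ratios of the brighter were 1.20-fold and 1.13-fold lower. That probe set carries the manufacturer's suffix for probes that may also bind other transcripts, so a part from related heavy chains was not separated. The log2 ratio stayed below 0 at 48 h under all 10 alternatives and at 24 h under 9 of them, the exception being no filter, at 0.03.

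The third Myh1 probe set was dim and went against both others. Its values were 9.73 with oil, 18.04 at 24 h and 27.5 at 48 h, a log2 ratio of 0.89 and then 1.499. It was thus the only one of the 18 past 2-fold in any comparison: 0 of 18 at 24 h (7.32% of all kept probe sets), 1 of 18 at 48 h (7.14%) and 0 of 18 between the tamoxifen arrays (5.45%). It comes from the same sequence record as the probe set that read 6365 on oil. Probe sets this dim varied widely: among 8675 with a mean intensity under 50, the SD of the log2 ratio at 48 h was 0.63.

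Myh4, the heavy chain of IIb fibres and the main one of this muscle, had a pair of probe sets that disagreed. The brighter gave 8489 with oil, 8716 at 24 h and 8655 at 48 h, so all 3 arrays lay within 1.03-fold. The other, from another sequence record, read 4545, 2835 and 3522, with oil the highest and tamoxifen 24 h the lowest, and log2 ratios of -0.68 and -0.37. The gap between both Myh4 probe sets was 0.72 in log2 at 24 h and 0.40 at 48 h. Over the 5001 genes with 2 or more kept, the SD of single probe sets about their gene's mean was 0.49 and 0.41. That SD covers probe sets of all intensities and is not a gap between 2 probe sets, so it gives only a rough scale. The dimmer Myh4 probe set lay among the 244 with mean intensities from 3000 to 5000. There the SD of the log2 ratio was 0.22 at 24 h and 0.285 at 48 h. The ratios of this probe set, -0.68 and -0.37, were both further from 0 than that. Which of the pair follows Myh4 more closely was not tested.

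Set against each other within an array, which removes any scaling factor common to both, Myh2 read higher relative to Myh1 on both tamoxifen arrays. The Myh2 to Myh1 ratio was 1.47 times that of the oil array at 24 h and 1.39 times at 48 h, a log2 difference of 0.56 and 0.47. Scaling factors, filters and floors cannot move this difference, so only 3 of the 10 alternatives bear on it. Quantile normalization gave 0.49 and 0.46, loess 0.53 and 0.455, and the median over a gene's probe sets 0.52 and 0.44. On the brighter Myh4 probe set, Myh2 to Myh4 was 1.19 and 1.20 times the oil ratio and Myh4 to Myh1 was 1.23 and 1.15 times. On the other Myh4 probe set, Myh2 to Myh4 was 1.96 and 1.58 times the oil ratio, and Myh4 to Myh1 turned to 0.75 and 0.88 times, so the direction of Myh4 against Myh1 depends on the probe set. Between 24 h and 48 h of tamoxifen, Myh2 to Myh1 differed by 0.94 times. All of this rests on 1 oil array, and no replicate tells how much such ratios differ between pools of mice. In whole-muscle RNA, a smaller share of fibres of one type and less RNA per fibre cannot be told apart.

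The heavy chain cluster also holds developmental, extraocular and noncoding genes. In RefSeq the order is Myh3 (embryonic), the noncoding 2310065F04Rik, Myh2, Myh1, the noncoding Myhas, Myh4, Myh8 (perinatal) and Myh13 (extraocular), with a few other noncoding entries between them. The 2 noncoding genes were picked for mention after their values had been seen. Myhas, whose entry overlaps that of Myh1, gave 1648 with oil, 1146 at 24 h and 693 at 48 h, and each array was lower than the one before it in this order. It was 1.44-fold lower than oil at 24 h and 2.38-fold lower at 48 h. It was thus past 2-fold at 48 h, where 2.71% of genes were 2-fold or more lower, and its log2 ratio at 48 h lay between -1.32 and -1.17 under 9 alternatives. The Myhas probe set and the brightest Myh1 probe set come from the same sequence record, so the values of both genes may share a source. Their ratios at 48 h still differed, at -1.25 for Myhas and -0.18 for Myh1. Myh4, the next gene, stood at 0.03 on its brighter probe set.

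The 2310065F04Rik transcript, which lies between Myh3 and Myh2, gave 232 with oil, 185 at 24 h and 222 at 48 h. Myh3 was dim at 25.9, 16.9 and 14.6, and so was Myh8 at 18.9, 19.0 and 21.4. Neither developmental heavy chain was past 2-fold, and Myh13 had no probe set in the annotation.

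**Figure D2:**
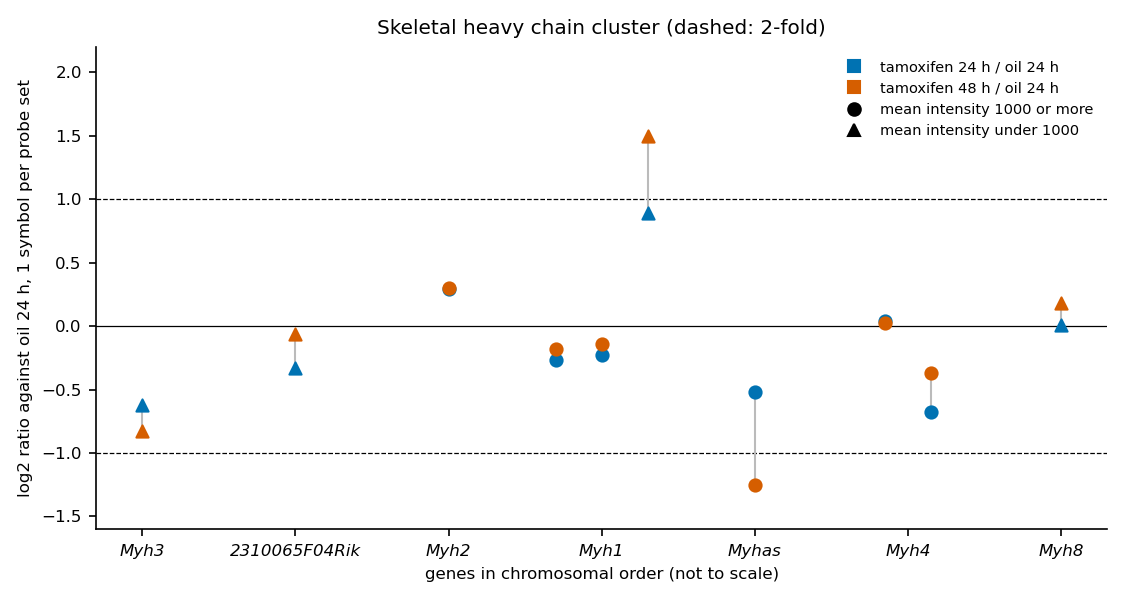
Log2 ratio to oil 24 h of every probe set in the skeletal heavy chain cluster, with genes in chromosomal order and not to scale; blue is tamoxifen 24 h, orange tamoxifen 48 h, circles have a mean intensity of 1000 or more and triangles less. Myh2 sits above 0 and the bright Myh1 probe sets below it, and Myhas is the only bright probe set past the dashed 2-fold line, at -1.25 at 48 h.

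Both fast light chains read nearly the same on all 3 arrays. Mylpf, the fast regulatory light chain, gave 9746 with oil, 9820.2 at 24 h and 10110.7 at 48 h, a spread of 1.04-fold from the lowest array to the highest. Myl1, the fast essential light chain, read 9470.3, 9440.4 and 9643, a spread of 1.02-fold. The Mylpf to Myl1 ratio was 1.01 times that of oil at 24 h and 1.02 times at 48 h. Both probe sets read 83.2% to 91.4% of the array's highest value, which is that of the member Tnnt3. Ratios were narrow among the 24 probe sets above 7500, but 7 of these belong to the members, these light chains included. A change in the Mylpf to Myl1 proportion may not be visible at this level, which was not tested.

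The troponin subunits sit on the thin filament: Tnnc2 binds calcium, Tnni2 holds back contraction until it does, and Tnnt3 ties the complex to tropomyosin. Tnnc2 gave 7586 with oil, 7249 at 24 h and 7323 at 48 h. Tnni2 read 10454, 10302 and 10304. Tnnt3 gave the highest value of each array, 11388, 10749 and 11124. In all 3 genes oil was the highest array and tamoxifen 24 h the lowest, by 1.05-fold, 1.015-fold and 1.06-fold. Within an array, Tnni2 to Tnnt3 was 1.04 times its oil ratio at 24 h and 1.01 times at 48 h, Tnnc2 to Tnni2 was 0.97 and 0.98 times, and Tnnc2 to Tnnt3 was 1.01 and 0.99 times.

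The other 2 Tnni2 probe sets come from 1 further sequence record. One read 7717, 6929.7 and 7046 (log2 ratios -0.16 and -0.13), and the other, far dimmer, read 112.3, 89.6 and 105.1 (-0.33 and -0.10). All 3 were lowest at 24 h, and the 2 dimmer ones differed from oil by more than the brightest did. Tnni2 and Tnnt3 are near neighbours on chromosome 7, where Lsp1 is the protein-coding gene between them. Lsp1, a leukocyte actin-binding protein, read 206, 180 and 278, lowest at 24 h as its neighbours were but highest at 48 h.

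Tpm1 encodes alpha-tropomyosin, which winds along actin and is made in fast muscle, heart and smooth muscle through alternative splicing. Its brightest probe set gave 8377 with oil, 7586 at 24 h and 7689 at 48 h, 1.10-fold and 1.09-fold lower. Its other 3 read 1141, 935 and 1028, then 245, 166 and 257, and then 173, 172 and 159. All 4 were below oil at 24 h, by 0.0059 to 0.56 in log2, and 3 of 4 at 48 h, the exception being the set that read 257. Markers of smooth muscle and pericytes also stood lower: 6 of 6 read below oil at both times, with a summed intensity of 5083 with oil, 3744 at 24 h and 3653 at 48 h. Of all 11092 genes, 5104 read below oil at 24 h and 5479 at 48 h. The other Pdgfrb probe set stood at 0.01 in log2 at 24 h, and those of Rgs5 lay between -0.51 and 0.25 at 48 h. None of the 6 was at the floor. Myh11 (smooth muscle myosin, 155 to 74.8 at 48 h) was past 2-fold, beside 2.71% of genes 2-fold or more lower at 48 h. The part of these markers in the Tpm1 values was not tested.

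Actn3, the alpha-actinin of fast fibres that anchors thin filaments at the Z-disc, gave 8459.6 with oil, 7924 at 24 h and 7797 at 48 h. The oil array was highest and the ratios were 1.07-fold and 1.08-fold lower. Tpm1 and Actn3 at 48 h kept the sign of their ratio under all 10 alternatives. At 24 h Tpm1 kept it under 9, with no filter the exception at 0.15, and Actn3 under 8, with no filter at 0.20 and a filter at rank 0.25 at 0.04.

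The signs of most other members depended on the scaling. At 24 h 3 genes read above oil and 7 below (Myl1 at -0.0046), and at 48 h 4 read above and 6 below. With the deposited values left unscaled, the median of all genes at 24 h moved to 0.13, and 7 members were then above oil by more than 0.005 in log2 and 2 below. At 48 h 1 was above and 9 below. Only Myh2 above oil and Myh1 and Tpm1 below it held at both times under all 5 scalings (median, none, quantile, loess and spikes). Actn3 was below oil in all of them too, though at -0.00030 at 24 h unscaled. The filter also sets which probe sets the scaling median is taken over. With no filter, Myh1 stood at 0.03, Tpm1 at 0.15 and Actn3 at 0.20 at 24 h, so these signs too depend on the scaling.

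The signals of the members lay at the top of the measured range. The labelled tissue was checked on other markers of skeletal muscle too, which were bright on the oil array, with Acta1 at 9445 and Ckm at 9684. Of the 18 probe sets 14 had a mean scaled intensity of 1000 or more, and the brightest probe set of each gene stood among the 202 highest of 45037 on every array. Tnni2 read 91.8% to 95.8% of the array's highest value, and Mylpf 85.6% to 91.4%. The spread of ratios narrowed with brightness. At 48 h the SD of the log2 ratio was 0.46 over 805 probe sets with mean intensities from 1000 to 3000, 0.17 over 66 from 5000 to 7500, and 0.07 over 24 above 7500, 7 of which belong to the members. Myh2, with the largest departure from oil of the members' brightest probe sets, was also the least bright of them. Whether the arrays were near saturation, which would shrink ratios, was not tested.

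**Figure D3:**
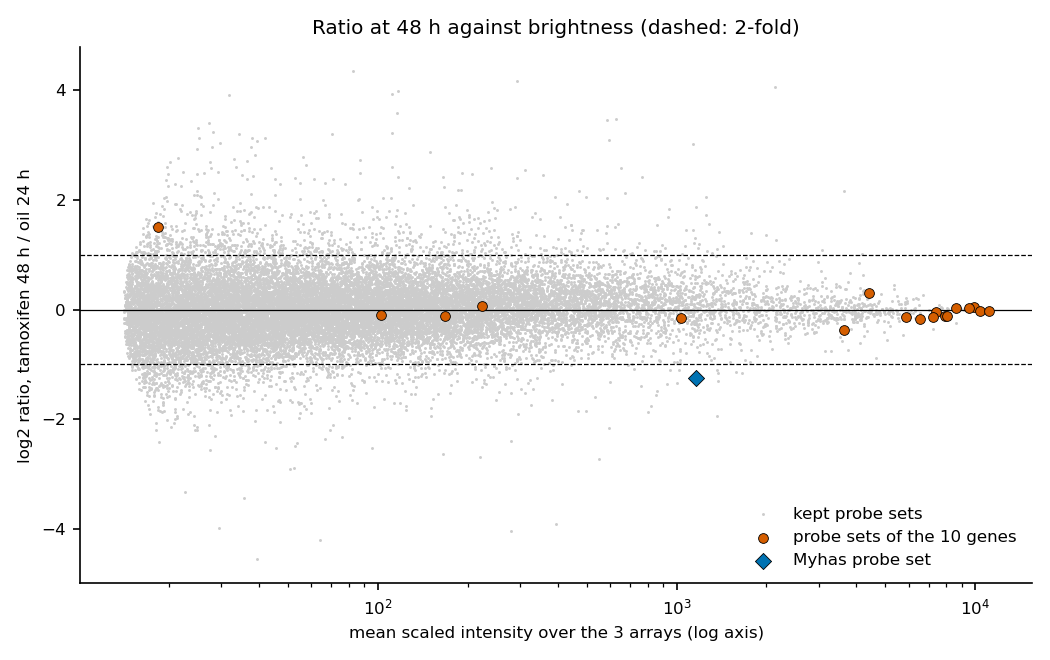
Log2 ratio of tamoxifen 48 h to oil 24 h against the mean scaled intensity over the 3 arrays (log axis); grey points are the 21804 kept probe sets, orange points the 18 probe sets of the fast-fibre contractile genes and the blue diamond Myhas. The cloud narrows to the right, and most orange points sit in its tip, between -0.18 and 0.30 for the brightest probe set of each gene.

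The brightest probe sets of the 10 genes together made up 1.54% of the signal summed over all kept probe sets with oil, 1.46% at 24 h and 1.48% at 48 h. Those of the slow-fibre contractile list (12 genes compared of 13) made up 0.317%, 0.321% and 0.273%. The other kept probe sets of these genes, 8 for the members, count in the whole but not in these shares. These are shares of signal and not counts of genes that changed. Of the 10 fast genes, 3 read above oil at 24 h and 4 at 48 h. Of the 12 slow genes, 8 did at 24 h and 2 at 48 h. Of all 11092 genes, 5988 did at 24 h and 5613 at 48 h.

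Other genes of fast fibres included a few with large ratios. Of 16 listed, 15 were compared, with medians of 0.09 at 24 h and 0.04 at 48 h, and 1 was 2-fold or more higher at 24 h (2.35% of all genes) and 2 at 48 h (3.72%). These were Sypl2 (a mitsugumin, a membrane protein of the triad), at 548 with oil, 1391 at 24 h, then 1815 at 48 h, and, at 48 h, Fbp2 (muscle fructose bisphosphatase), at 277, 411 and 758. None was 2-fold or more lower (2.48% of all genes at 24 h). Mylk2, the kinase that phosphorylates the regulatory light chain Mylpf, read 941, 676 and 696. Casq1, the calcium store protein of fast fibres, read 4573, 5515 and 5929.9. The muscle creatine kinase Ckm was near level, at log2 ratios of -0.07 and -0.02, although its other probe set gave 0.52 and 0.69. Eno3, the muscle enolase, stood at -0.09 and -0.0011. At 48 h the calcium buffer Pvalb stood at 0.06 and the fast calcium pump Atp2a1 at 0.04. The genes with large ratios, Sypl2 and Fbp2, lay in classes of intensity where ratios spread more than among the brightest. At 48 h the SD was 0.46 from 1000 to 3000, the class of Sypl2, and 0.51 from 200 to 1000, that of Fbp2. Their log2 ratios at 48 h, 1.73 and 1.45, were larger than these SDs. No test compares this list with the members.

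In the slow-fibre list the median log2 ratio was 0.11 at 24 h and -0.17 at 48 h. Of 12 genes, 10 read below oil at 48 h, as 5479 of all 11092 genes did. A single gene of the 12, Casq2 (calsequestrin 2), was past 2-fold, at 187 with oil and 471 at 48 h, beside 3.72% of all genes 2-fold or more higher. The largest departures below oil were Myh7 (slow heavy chain, -0.76) and Tpm3 (slow tropomyosin, -0.75, its other probe sets -0.92 to 0.54), with Tnnc1 at -0.50. The slow probe sets lay in classes of intensity where ratios spread more, so the lists cannot be compared by size of ratio alone.

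Sarcomere genes shared by all fibres gave medians of -0.09 and 0.04 over 20 of 21. At 48 h 1 of the 20 was past 2-fold, near the 6.44% of all genes, and at 24 h none was, beside 4.83%. This was Smyd1 (a methyltransferase that helps myosin assemble) at 895, 1211 and 1824, although at 48 h the gene's remaining probe sets lay between -1.71 and 1.53 in log2. Tcap, the titin cap of the Z-disc, read 6349, 4196 and 3439. Pdlim7 read 1683, 2266 and 3179.8, a log2 ratio of 0.43 and 0.92, but its other probe sets lay between -0.75 and -0.13 at 24 h and between -0.73 and 0.38 at 48 h. Lmod2 read 655, 390 and 442. Of 10 embryonic and cardiac sarcomere genes 6 were compared, and 2 were past 2-fold at both times, beside 4.83% of all genes at 24 h and 6.44% at 48 h. These were Mybph, a myosin-binding protein, at 259, 1872 and 4296 and the cardiac actin Actc1 at 1459, 2929 and 6545. The skeletal actin Acta1, which shares the thin filament with the troponins, read at log2 ratios of -0.11 and -0.01.

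**Figure D4:**
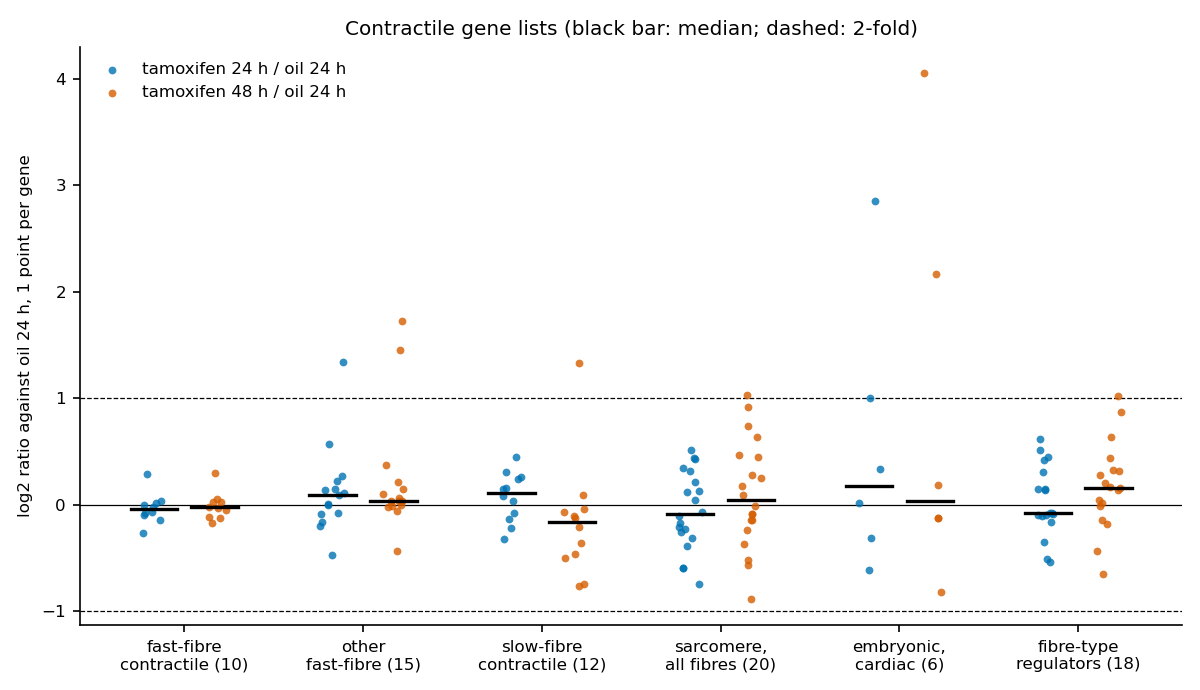
Log2 ratio to oil 24 h, 1 point per gene on its brightest probe set, for the fast-fibre contractile genes and 5 other lists; blue is tamoxifen 24 h, orange tamoxifen 48 h, black bars are medians, dashed lines mark 2-fold and the number of genes is in brackets. The 10 fast-fibre contractile genes lie between -0.26 and 0.30, and the points of the other lists spread further, up to 4.05 for Mybph at 48 h.

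Of 23 transcription regulators that set fibre type or drive muscle genes, 18 were compared. None was past 2-fold at 24 h (4.83% of all genes) and 1 was at 48 h, near the 6.44% of all genes. This was Myog (myogenin), at 62.6, 59.2 and 127. Mef2c, of the family that binds MEF2 sites, read 1421, 2021 and 2602, with other probe sets between -0.70 and 0.86 at 24 h and between 0.61 and 1.20 at 48 h. Maf, a large Maf factor tied to IIb fibres, gave 1550 with oil, 1067 at 24 h and 985 at 48 h, and its other probe sets lay between -0.73 and 0.07 in log2 at 48 h. Tead1 read 525, 806 and 818. The list medians were -0.08 and 0.16.

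Marker lists of other cells in the muscle went different ways. Summed endothelial markers (5 of 5 compared) gave 910.1 with oil, 841 at 24 h and 663 at 48 h, but 3 of the 5 read above oil at 24 h, with a median log2 ratio of 0.11, and 1 of 5 did at 48 h (median -0.37). Vwf and Tek carried the lower sum at 24 h. Cdh5, 1 of the 3 above oil, stood at 0.60 in log2 at 24 h, but its other probe set gave -0.57. Macrophage markers (5 of 5) summed to 1250.3, 1200.0 and 1102, with 2 of 5 above oil at each time and Cd163 2.10-fold lower at 48 h. Fibroblast and tendon markers (7 of 7) summed to 11697, 10886 and 11631. At 48 h 3 of the 7 read above oil and 4 below, with a median log2 ratio of -0.15. Col1a1 was 2.26-fold higher at 48 h, but its other probe set gave a log2 ratio of 0.13. Satellite cell markers (3 of 4) summed to 112.4, 172 and 203, with Cdh15 2.38-fold and 3.46-fold higher and Pax7 below oil at both times. Neutrophil markers (3 of 4) summed to 164, 223 and 127. Of these, Lcn2 was 7.27-fold and 4.85-fold higher, and S100a8 and S100a9 were 3.24-fold and 4.08-fold lower at 48 h. Each of these folds involves a dim value: 17.7 for Lcn2 with oil, and 25.6 for S100a8 and 15.5 for S100a9 at 48 h. Adipocyte markers (2 of 5) summed to 4486, 5105 and 3831. Most of this sum was Fabp4, at 3922, 4432 and 3362. The other probe sets of Fabp4 lay between -1.55 and 0.19 in log2 at 24 h and between -1.18 and -0.02 at 48 h. Schwann cell markers (3 of 5) summed to 2268, 2212 and 2048, and the 1 red cell marker compared, of 4, read 39.1, 35.7 and 38.4.

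Control probe sets gave 3' to 5' ratios of 0.83 to 0.87 for Gapdh and 0.95 to 1.10 for beta-actin, and the beta-actin 3' to middle ratio was 3.07 with oil, 3.37 at 24 h and 2.50 at 48 h. The part of these cells, and of RNA quality, in the members' values was not tested.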

How the data were processed

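The authors deposited linear intensities for every probe set of each array; their summary and scaling methods were not given in the sources used here. Per the labels, RNA was extracted by Trizol, cleaned on RNeasy columns and biotin-labelled. All 3 columns were used. Symbols came from the platform annotation, updated through Entrez identifiers to RefSeq GRCm38.p6. After 64 control probe sets were set aside, probe sets with a mean percentile rank of 0.5 or more were kept, the arrays were scaled to 1 median over these (factors 1.007, 0.944 and 1.052 for oil, tamoxifen 24 h and 48 h), a floor of 4.05 (the 25th percentile) was set and log2 ratios were taken. A gene is read on whichever of its kept probe sets ranks highest on average (its brightest). Past 2-fold is a size rule, not a test, and precision is limited by the number of arrays. Functions were tested on simulated data. Python 3.11.15, pandas 2.3.3 and statsmodels 0.14.6 were used.

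The members, gene lists and rules were chosen with earlier results of these data known. All members are named with every probe set; from the other lists that are not cell markers, genes past 2-fold against oil and up to 4 with the largest ratios were named, with neighbours that encode heavy chains or troponins. Ckm, Eno3, Pvalb, Atp2a1, Acta1, Lsp1, the marker genes named singly, the pairs on the second Myh4 probe set, the promoters and the brightness classes were chosen after values were seen. Probe sequences were not analysed here.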

Additional observations from a re-analysis of the deposited data

How the results depend on the processing

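The number of members past 2-fold was 0 in all 3 comparisons under all 10 alternatives (9 planned, and scaling on the hybridisation spikes, added after the data were seen). Among probe sets, the count at 24 h was 1 instead of 0 with quantile normalization, with loess, with no filter and with a filter at rank 0.25. At 48 h it was 0 instead of 1 with a filter at rank 0.75 and with the floor at the 50th percentile. Each of these concerns the dim Myh1 probe set, whose log2 ratios with the raised floor were 0.36 at 24 h and 0.97 at 48 h and which the rank 0.75 filter removes. The median of the 10 genes ranged from -0.12 to 0.25 at 24 h, from -0.09 to 0.05 at 48 h and from -0.20 to 0.05 between the tamoxifen arrays, and its sign held under 6 of 10 alternatives in each. Quantile normalization sets Tnnt3 to a ratio of 0 by construction, since it is the highest value of every array. No paired analysis was possible because each group is 1 array. Limits are the single oil array in both comparisons and signals near the top of the range.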
